A study of Mus musculus with 6 samples.

Results

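Leukocyte integrins and their adhesion ligands were described in R848-stimulated mouse macrophages that had been pretreated with a KAT8 inhibitor or with DMSO. The set holds 10 genes, chosen by symbol, of the 34745 genes in the deposited count table. All 10 were found once each and all passed the filter on low counts, which left 13815 genes tested. With the inhibitor, mRNA levels of 9 of the 10 were lower. Madcam1 fell 16.0-fold, Itgal 2.69-fold and Itga4 2.14-fold, while Itgb2, the shared chain of the beta 2 integrins, did not pass the test. Of all tested genes 26.5% were called lower and 24.9% higher.

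Integrins are adhesion receptors made of 1 alpha and 1 beta chain. On leukocytes the beta 2 chain (Itgb2, CD18) pairs with alpha L (Itgal) to form LFA-1, with alpha M (Itgam) to form Mac-1 and with alpha X (Itgax, CD11c) to form complement receptor p150,95. The alpha 4 chain (Itga4) pairs with beta 1 (Itgb1) or beta 7 (Itgb7). LFA-1 and Mac-1 bind ICAM-1 (Icam1), alpha 4 beta 1 binds VCAM-1 (Vcam1) and fibronectin, and alpha 4 beta 7 binds the gut addressin MAdCAM-1 (Madcam1). In macrophages these receptors serve adhesion, migration and the uptake of complement-coated particles.

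The compared cells were wild-type mouse bone marrow-derived macrophages, primary cells grown from marrow in M-CSF (20 ng/ml), sequenced as mRNA libraries. Of 6 libraries, 3 came from cells given the KAT8 inhibitor and then R848 (100 ng/ml, 6 h), and 3 from cells given DMSO and then the same R848. R848 is a small-molecule agonist of TLR7, and KAT8 is a lysine acetyltransferase that acts on histone H4. The labels name no inhibitor dose or pretreatment time and are silent on whether replicates were separate animals or dishes. The p-values therefore measure only how far these libraries vary, and that variation may be technical. Cells without R848 were not analysed here.

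Library totals ranged from 23037820 to 25089320 counts with the inhibitor and from 18441352 to 24429778 with DMSO. Adjusted p-values come from the quasi-likelihood test of edgeR, with Benjamini-Hochberg adjustment over all tested genes, and a gene was called at an adjusted p under 0.05. By this rule 3446 genes were higher and 3667 lower with the inhibitor. Scaling by library totals alone shifted the median log2 fold change by 0.11 and gave 4887 higher and 2843 lower genes. Kat8 mRNA was at 20.7 ± 0.351 CPM with the inhibitor and 16.0 ± 0.726 CPM with DMSO (SD, n = 3 each), and does not measure inhibition of the protein. CPM are counts scaled to library size after TMM normalization. All 10 macrophage markers of the list were detected, and Lyz2, the most abundant, averaged 4188 CPM with the inhibitor and 8591 CPM with DMSO. Of the 10, 8 were called lower, beside 26.5% of all tested genes. The markers that did not pass were Cd68, at 1672 CPM with the inhibitor and 1503 CPM with DMSO, and Csf1r, at 463 and 473 CPM. In these bulk cultures fewer cells of a type and less RNA per cell cannot be told apart.

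Markers of other cells differed between the groups too, beside 26.5% of all tested genes called lower and 24.9% called higher. Lower with the inhibitor were 7 of 9 stromal markers (median log2 fold change -0.999), and their summed level was 1999.98 to 2129 CPM with the inhibitor and 4089 to 4874 CPM with DMSO. Col1a1, the most abundant of them per kilobase, averaged 476 CPM with the inhibitor and 1043 CPM with DMSO. All 5 smooth muscle markers were lower, with sums of 211 to 249.1 CPM against 1091 to 1137 CPM in DMSO libraries, and Acta2 led them at 49.98 CPM with the inhibitor and 462 CPM with DMSO. Of 8 endothelial markers 4 were tested and 2 were lower, with sums of 13.8 to 14.6 CPM with the inhibitor and 56.6 to 58.0 CPM with DMSO, mostly Vwf, while Cldn5 and Emcn were at 0 in every library. The part of these cells in the values of the adhesion genes was not tested.

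**Figure D1:**
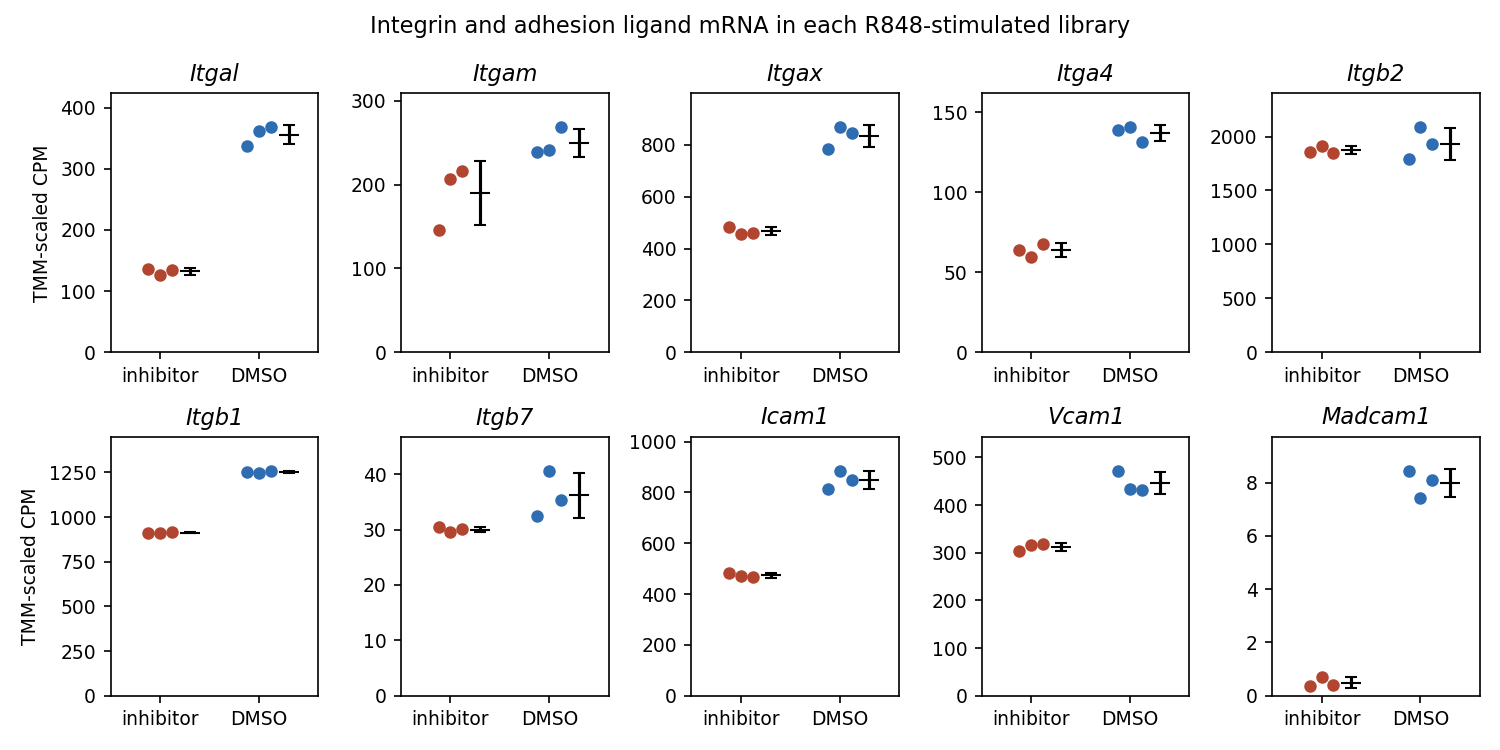
TMM-scaled CPM of the 10 genes in each library, inhibitor (red) left of DMSO (blue), each panel with its own linear axis from 0; dashes with bars are the mean ± SD of 3 libraries. The groups overlap only for Itgb2, and the Madcam1 libraries sit at 0.347 to 0.719 CPM with the inhibitor and 7.42 to 8.45 CPM with DMSO.

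Among the alpha chains, Itgal (ENSMUSG00000030830, chromosome 7, 127296260 to 127335138, plus strand, mm10) fell most. Its level was 137, 126 and 134 CPM with the inhibitor and 338, 361 and 368 CPM with DMSO. The highest inhibitor library lay far below the lowest DMSO library. The log2 fold change was -1.43 (SE 0.052, adjusted p = 5.96e-07), and 3.39% of tested genes had a lower one. LFA-1 is also carried by lymphocytes, and their markers gave the following values. The summed level of 8 T cell markers was 4.97 to 5.72 CPM with the inhibitor and 2.18 to 2.67 CPM with DMSO, mostly Lck, with Cd3d and Cd8a at 0 in every library. No NK cell marker of 6 passed the filter: their sum was at most 0.231 CPM with the inhibitor and 0.442 CPM with DMSO, Klrb1c had the highest level per kilobase, and Ncr1, Klrd1 and Prf1 were at 0. Of 6 B cell markers 3 were tested and did not pass, and their summed level was 42.7 to 46.4 CPM against 44.5 to 49.5 CPM in DMSO libraries, mostly Cd22. The part of these cells in the Itgal value was not tested.

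Itga4 (ENSMUSG00000027009, chromosome 2, 79255426 to 79333123, plus strand) had 64.1, 59.6 and 67.9 CPM with the inhibitor and 139, 141 and 131 CPM with DMSO. All 3 inhibitor libraries were at about the same level, well under the DMSO ones. The log2 fold change was -1.10 (SE 0.058, adjusted p = 2.84e-06). Exons of Cerkl on the opposite strand overlap 8.04% of its exon length, but Cerkl had at most 25 counts in a library.

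Itgax (ENSMUSG00000030789, chromosome 7, 128129547 to 128150657, plus strand) encodes CD11c, used as a marker of dendritic cells and of some macrophages. It had 483, 455 and 461 CPM with the inhibitor and 786, 868 and 845 CPM with DMSO. The groups were clearly apart. On the log2 scale the change was -0.84 (SE 0.050, adjusted p = 5.35e-06). Dendritic cell markers were scarce: 3 of 8 were tested and all 3 were lower, the list summed to 16.1 to 16.2 CPM with the inhibitor and 27.4 to 30.9 CPM with DMSO, Zbtb46 led it, and Siglech was at 0. Over all tested genes 26.5% were called lower. The part of dendritic cells in the Itgax value was not tested.

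Itgam (ENSMUSG00000030786, chromosome 7, 128062640 to 128118491, plus strand) starts the same stretch of chromosome 7, and Itgax begins 11.1 kb beyond its end. It encodes CD11b, the alpha chain of complement receptor Mac-1. Its level was 146, 206 and 216 CPM with the inhibitor and 239, 241 and 268 CPM with DMSO. Inhibitor replicate 1 stood below its group, and the log2 fold change of -0.40 (SE 0.13, adjusted p = 0.0364) was the least precise among the alpha chains. Without inhibitor replicate 1 it was -0.24 (adjusted p = 0.0234), and leaving out each library in turn gave -0.50 to -0.24. The call was lost without DMSO replicate 1, 2 or 3 (adjusted p = 0.0566, 0.0629 and 0.108) and, with library totals, at an adjusted p = 0.103.

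Counts of Itgam are tied to those of another annotated gene. Gm49368 (ENSMUSG00000108596, chromosome 7, 128062683 to 128128160), also coding and on the same strand, shares 3450 bases or 68.7% of the exon length of Itgam. It took 44.5%, 20.6% and 18.8% of the summed counts of both genes in inhibitor replicates 1, 2 and 3. In DMSO replicates 1, 2 and 3 it took 37.7%, 41.0% and 34.2%. The share in inhibitor replicate 1 thus lay above the DMSO libraries and the shares in the other inhibitor libraries below them. The sum of both genes was far more even, at 263, 260 and 267 CPM with the inhibitor and 383, 408 and 408 CPM with DMSO. A sum was formed after the values were seen. Its log2 fold change was -0.60 (SE 0.042, adjusted p = 1.1e-05), and leaving out any 1 library kept the adjusted p between 1.42e-05 and 0.000149. Gm49368 by itself was lower (log2 fold change -1.03, SE 0.29, adjusted p = 0.0178). How shared reads were assigned is not given in the sources used here.

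**Figure D2:**
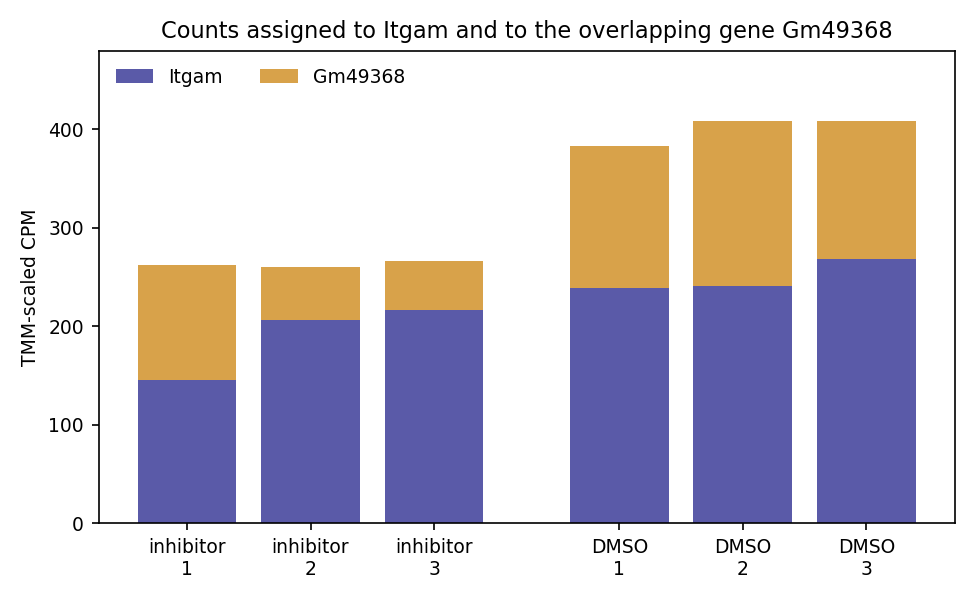
Stacked bars of TMM-scaled CPM assigned to Itgam and to the overlapping gene Gm49368 in each library, inhibitor libraries left of DMSO libraries. The sums are 260 to 267 CPM with the inhibitor and 383 to 408 CPM with DMSO, while Gm49368 takes 44.5%, 20.6% and 18.8% of the sum in inhibitor libraries and 34.2% to 41.0% in DMSO libraries.

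The sequence upstream of Itgam is printed because 3 places in it hold the letters GAGGAA, a core that PU.1 and other ETS factors of myeloid cells bind. PU.1 is known for its action at this promoter in human cells. The window runs from 250 bases before to 50 bases after the RefSeq start (chr7:128062390-128062689, plus strand, build GRCm38.p6), with matches on either strand in capitals.
Itgam: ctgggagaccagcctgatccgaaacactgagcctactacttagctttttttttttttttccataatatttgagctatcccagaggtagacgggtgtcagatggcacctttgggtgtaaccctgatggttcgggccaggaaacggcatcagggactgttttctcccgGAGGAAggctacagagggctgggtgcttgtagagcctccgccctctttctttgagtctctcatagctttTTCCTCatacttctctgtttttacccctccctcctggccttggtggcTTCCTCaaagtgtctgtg
The matches begin 84 and 15 bases before the start and at base 33 after it. Of 32851 RefSeq promoters of this length 28.3% hold the motif and 4.82% hold it at 2 or more places. The RefSeq promoters used here covered 7 of the 10 members, without Itgal, Itgb2 and Vcam1. Of these 7, Itgb1 and Itgb7 held the motif once and Itgax, Itga4, Icam1 and Madcam1 did not. The motifs were chosen after the sequences had been read, and a match is a description of the letters.

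The log2 fold changes of the beta chains, from -0.46 to -0.05, were nearer 0 than those of Itgal, Itga4 and Itgax. Itgb2 (ENSMUSG00000000290, chromosome 10, 77530252 to 77565708, plus strand) had 1860, 1916 and 1850 CPM with the inhibitor and 1789, 2087 and 1930 CPM with DMSO. The inhibitor values lay inside the DMSO range. The log2 fold change was -0.05 (95% interval -0.18 to 0.09, adjusted p = 0.552), and it was 0.06 with library totals and 0.0084 without DMSO replicate 2, so no direction is given.

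Itgb1 (ENSMUSG00000025809, chromosome 8, 128685654 to 128733200, plus strand), the partner of many alpha chains in most tissues, had 913, 912 and 915 CPM with the inhibitor and 1253, 1246 and 1260 CPM with DMSO. The replicates of each group were nearly equal, and the log2 fold change was -0.46 (SE 0.036, adjusted p = 2.36e-05). Itgb7 (ENSMUSG00000001281, chromosome 15, 102215995 to 102231944, minus strand), the beta chain of gut-homing lymphocyte integrins, had 30.5, 29.5 and 30.1 CPM with the inhibitor and 32.5, 40.6 and 35.3 CPM with DMSO. The groups did not overlap but lay close together (log2 fold change -0.27, SE 0.085, adjusted p = 0.0277). That call was lost without inhibitor replicate 1, 2 or 3 (adjusted p = 0.0603, 0.0770 and 0.0643), without DMSO replicate 2 or 3 (0.0625 and 0.0523) and with library totals (0.117).

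Of the 3 member ligands, Icam1 (ENSMUSG00000037405, chromosome 9, 21015985 to 21028817, plus strand) was the most abundant per kilobase of exon. It had 483, 473 and 466 CPM with the inhibitor and 814, 886 and 848.4 CPM with DMSO. All inhibitor libraries were well below all DMSO ones (log2 fold change -0.84, SE 0.045, adjusted p = 2.93e-06). Exons of the antisense gene Gm47079 overlap 11.7% of its exon length, and strand use in counting is not given in the sources used here.

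Vcam1 (ENSMUSG00000027962, chromosome 3, 116109949 to 116129688, minus strand), made by activated endothelium, marrow stroma and some macrophages, had 303, 316 and 318 CPM with the inhibitor and 472, 433 and 431 CPM with DMSO. The groups were apart by more than 100 CPM, and the log2 fold change was -0.51 (SE 0.049, adjusted p = 6.47e-05). The summed level of the stromal markers given above was lower in the same libraries. Of these markers 7 of 9 were called lower, beside 26.5% of all tested genes. Their part in the Vcam1 value was not tested.

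Madcam1 (ENSMUSG00000020310, chromosome 10, 79664559 to 79668537, plus strand), best known from venules of the gut and its lymphoid tissue, was the least abundant member per kilobase. It had 9, 18 and 10 counts with the inhibitor and 153, 172 and 186 counts with DMSO. Scaled, these were 0.347, 0.719 and 0.415 CPM with the inhibitor and 8.45, 7.42 and 8.11 CPM with DMSO. Every DMSO library thus held Madcam1 reads well above the limit that a count of 0 allows (at most 0.163 CPM), and the inhibitor libraries were above it too. The log2 fold change was -4.00 (SE 0.22, adjusted p = 3.65e-06), and 9 of 13815 tested genes had a lower one. Among the 8 endothelial markers, Vwf averaged 9.39 CPM with the inhibitor and 51.1 CPM with DMSO, Kdr was also called lower, Cdh5 and Egfl7 did not pass, and Cldn5 and Emcn were at 0. The summed endothelial level given above was lower in the inhibitor libraries, as was Madcam1, and its part in the Madcam1 value was not tested.

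The upstream windows of Madcam1 and Icam1 are printed because each holds at 2 places the letters GGAANNNCC, where N is any base, a core of NF-kB type sites. NF-kB is the factor that Toll-like receptor signalling activates, and such sites are known in the mouse Madcam1 and the human ICAM1 promoter. The windows are from RefSeq (build GRCm38.p6, plus strand), at chr10:79664309-79664608 for Madcam1 and chr9:21015690-21015989 for Icam1, with matches on either strand in capitals.
Madcam1: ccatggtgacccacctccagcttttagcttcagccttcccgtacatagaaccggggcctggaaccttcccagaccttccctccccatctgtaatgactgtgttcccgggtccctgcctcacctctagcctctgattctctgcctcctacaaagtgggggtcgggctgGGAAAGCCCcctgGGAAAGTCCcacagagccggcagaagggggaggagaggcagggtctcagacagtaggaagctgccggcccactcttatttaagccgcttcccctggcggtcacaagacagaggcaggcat
Icam1: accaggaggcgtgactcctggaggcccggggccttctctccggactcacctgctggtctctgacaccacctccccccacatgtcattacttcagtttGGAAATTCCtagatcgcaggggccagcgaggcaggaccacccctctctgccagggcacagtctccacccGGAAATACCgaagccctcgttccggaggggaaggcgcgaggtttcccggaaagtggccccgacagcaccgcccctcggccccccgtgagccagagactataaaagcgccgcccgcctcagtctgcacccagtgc
In Madcam1 the matches GGAAAGCCC and GGAAAGTCC begin 83 and 70 bases before the start. In Icam1 GGAAATTCC, which reads as a match on both strands, begins 153 bases and GGAAATACC 84 bases before it. Of 32851 promoters 18.5% hold the motif and 2.16% hold it at 2 or more places. Among the other members with a promoter it was found once in Itgb1 and not in Itgam, Itgax, Itga4 or Itgb7, within this window only. None of the printed windows holds both motifs.

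**Figure D3:**
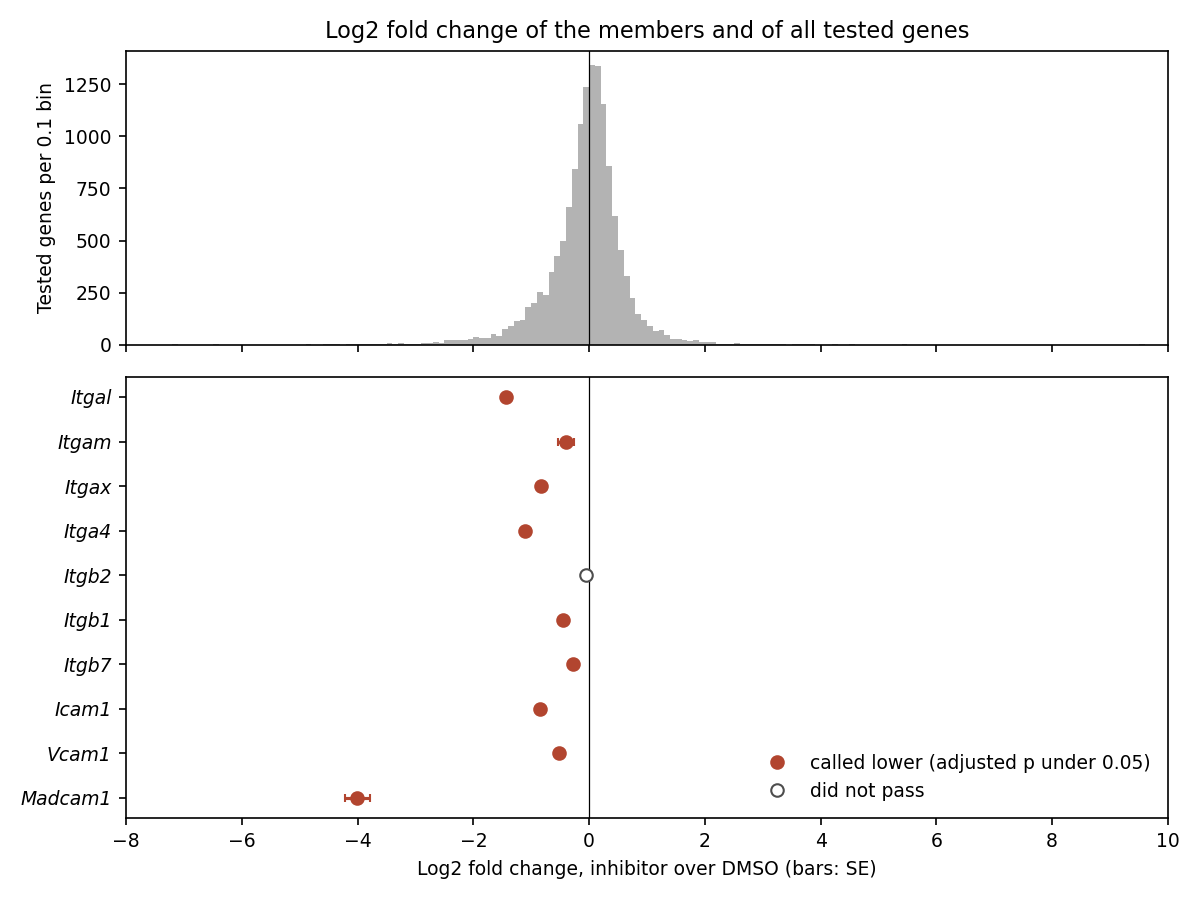
Upper panel, number of the 13815 tested genes per bin of log2 fold change (inhibitor over DMSO); lower panel, the 10 genes on the same axis with SE bars, filled where called lower. All filled points lie left of 0, from -0.27 for Itgb7 to -4.00 for Madcam1, and Itgb2 is open at -0.05.

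As a set, the median log2 fold change of the 10 genes was -0.67, beside 0.01 over all tested genes. The groups did not overlap, with the inhibitor below, for 9 of the 10, against 30.3% of tested genes (60.6% counting both directions). A fall of at least 2-fold was called for Itgal, Itga4 and Madcam1, against 6.86% of tested genes, while 3.14% of tested genes were called at least 2-fold higher. Because the members were picked with results of these data known, the set was given no test.

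Levels of different genes were compared per kilobase of annotated exon. In DMSO libraries the order in CPM per kilobase was Itgb2 (634 ± 48.8), Itgb1 (307 ± 1.68), Icam1 (195 ± 8.26), Itgax (173 ± 8.82), Itgal (54.2 ± 2.41), Vcam1 (50.2 ± 2.60), Itgam (49.6 ± 3.29), Itgb7 (13.1 ± 1.49), Itga4 (9.79 ± 0.361) and Madcam1 (5.56 ± 0.366; SD, n = 3 each). The ranges of Itgal, Vcam1 and Itgam overlapped, so these neighbours were not separated. The place of Itgam rests on the counts assigned to it alone: in DMSO libraries 34.2% to 41.0% of the counts of both genes went to Gm49368, and with these added Itgam would stand higher. With the inhibitor Itgal, at 20.1 ± 0.888 CPM per kilobase, was rank 7, below Itgam (37.7 ± 7.60) and Vcam1 (35.2 ± 0.955), whose ranges overlapped. Itgb2 remained rank 1 and Madcam1 rank 10, at 614 ± 11.8 and 0.344 ± 0.138 CPM per kilobase. Exon length counts all annotated transcripts, 13978 bases for Itga4, and a gene that mostly uses a short transcript is understated.

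Whether partner chains moved together was measured as the log2 ratio of alpha to beta counts within a library, which does not depend on scaling between libraries. For Itgal over Itgb2 it was -3.76, -3.93 and -3.78 with the inhibitor and -2.40, -2.53 and -2.39 with DMSO, a difference of -1.38. For Itgax over Itgb2 it averaged -2.01 ± 0.0652 with the inhibitor and -1.21 ± 0.0438 with DMSO (SD, n = 3 each), a difference of -0.79. The values of both pairs were lower in every inhibitor library than in any DMSO library. For Itgam over Itgb2 the groups overlapped, at -3.33 ± 0.305 with the inhibitor and -2.95 ± 0.141 with DMSO. With Gm49368 added to Itgam they did not, at -2.83 ± 0.0445 and -2.27 ± 0.0713, a difference of -0.56.

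The alpha 4 ratios were also lower with the inhibitor. For Itga4 over Itgb1 the log2 ratio averaged -3.84 ± 0.0916 with the inhibitor and -3.19 ± 0.0611 with DMSO, a difference of -0.64. For Itga4 over Itgb7 it averaged 1.09 ± 0.0798 with the inhibitor and 1.92 ± 0.153 with DMSO, a difference of -0.84. For 4 of the 5 pairs the alpha count relative to its partner was thus lower in every inhibitor library than in any DMSO library. Of single tested genes 60.6% had groups that did not overlap, counting both directions, and no such share was computed for other gene pairs. The pairs share Itgb2 or Itga4, and each difference follows from the fold changes of its genes given above. They come from members picked with results of these data known, so the p-values add no separate evidence. A two-sided exact permutation test with 3 libraries against 3 cannot go below p = 0.1, which 4 of the 5 ratios reached (0.125 adjusted over the 5), while Itgam over Itgb2 gave an exact p = 0.2. Ratios of mRNA counts say nothing of the number of receptors on the cell.

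**Figure D4:**
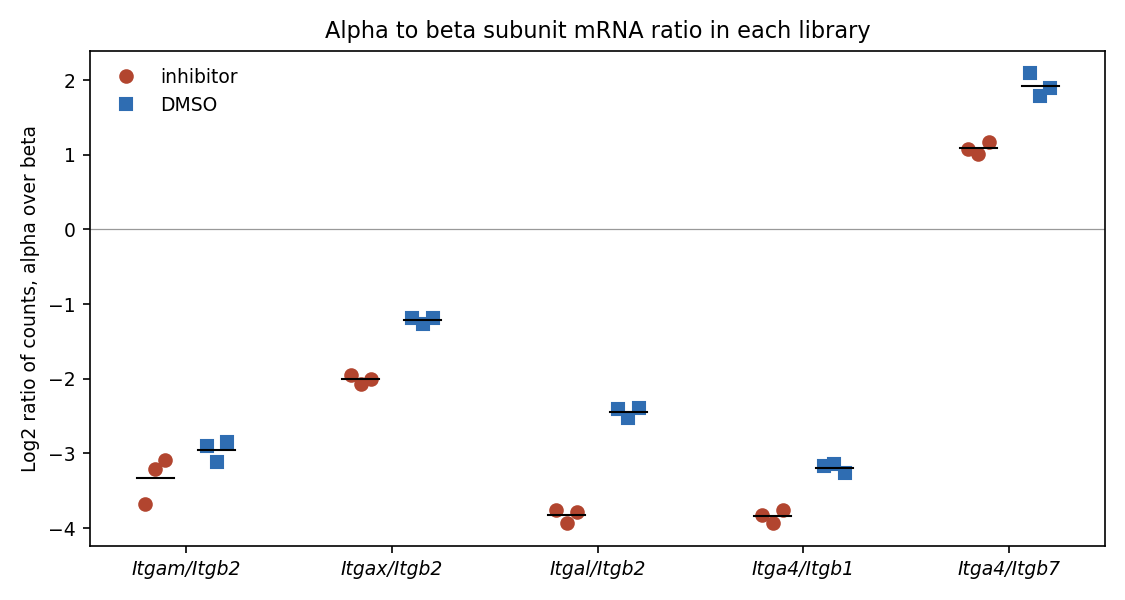
Log2 ratio of alpha to beta subunit counts in each library for 5 partner pairs, inhibitor (red circles) left of DMSO (blue squares), with group means as lines. The inhibitor libraries lie below the DMSO libraries for 4 pairs, and the groups overlap for Itgam over Itgb2.

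Of 19 further integrin subunits 14 were tested, 7 were lower, Itgb3 was higher and 6 did not pass (median log2 fold change -0.34), beside 26.5% of all tested genes lower and 24.9% higher. Itga3, a laminin receptor chain of epithelia and other adherent cells, fell to 26.3, 21.4 and 23.6 CPM with the inhibitor, against 111, 102 and 98.8 CPM with DMSO (log2 fold change -2.13, SE 0.083). Itgb3, the beta chain of the vitronectin receptor, rose to 52.7, 56.0 and 51.2 CPM with the inhibitor, against 21.3, 22.8 and 21.7 CPM with DMSO (log2 fold change 1.28, SE 0.062). Both differences far exceeded the spread of the replicates. Itga5, the fibronectin receptor chain and the most abundant of these 14 per kilobase, was at 624 ± 19.8 CPM with the inhibitor and 729 ± 23.2 CPM with DMSO (log2 fold change -0.23, adjusted p = 0.0031). The others called lower were Itga1, Itga2, Itga9, Itgav and Itgb8, and Itgb8 did not pass with library totals. The alpha D chain Itgad, next to Itgax in the beta 2 family, had 1 count in 1 inhibitor library and 0 in the rest.

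**Figure D5:**
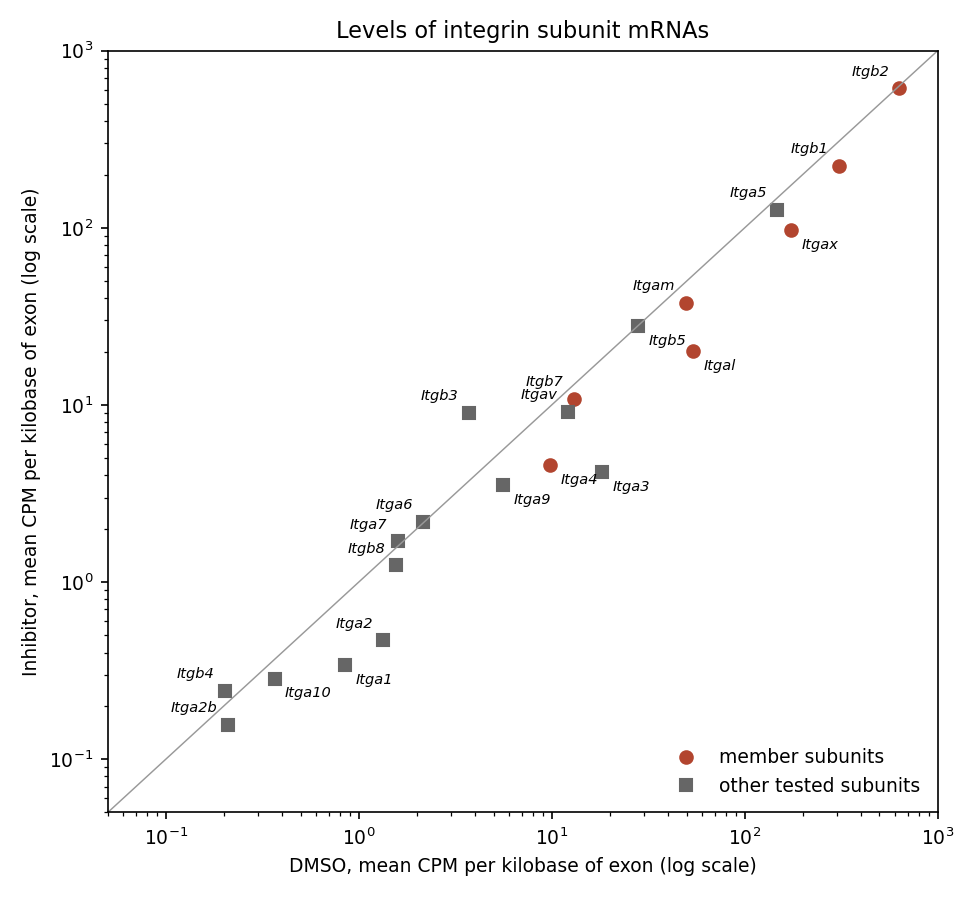
Mean CPM per kilobase of exon of each tested integrin subunit, DMSO on the horizontal and inhibitor on the vertical axis, both logarithmic, with the line of equal levels; red circles are members of the set and grey squares other subunits. Itgb3 lies above the line, Itgb2 and Itgb5 on or near it, and Itgal and Itga3 well below it.

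Of 13 other ligands of these integrins 9 were tested, 4 were lower, Icam2 was higher and 4 did not pass (median -0.43). Beside this, 26.5% of all tested genes were lower and 24.9% higher. Fibronectin (Fn1), bound by alpha 4 beta 1, fell to 2801, 2519 and 2564 CPM with the inhibitor, against 6896, 5488 and 5616 CPM with DMSO. Osteopontin (Spp1), the most abundant of these 9 per kilobase, had 2541 ± 285 CPM with the inhibitor and 3561 ± 147 CPM with DMSO (log2 fold change -0.49, SE 0.081); 18.8% of its exon length overlaps Gm42793 on the same strand. Thy1, a ligand of Mac-1 in human cells, was lower as well (log2 fold change -2.24, SE 0.14), and is also 1 of the 9 stromal markers. Stromal cells make fibronectin too, and the part of their lower markers in these falls was not tested. Jam3 was the other ligand called lower. The call of Icam2 did not hold in DESeq2 (adjusted p = 0.0748), and the fibrinogen genes Fga, Fgb and Fgg were at 0 in every library.

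Among 19 genes that link integrins to talin, kindlin and their activators, 17 were tested, 5 were higher, 9 lower and 3 did not pass (median -0.18). Over all tested genes 24.9% were higher and 26.5% lower. The actin crosslinker filamin A (Flna), which competes with talin for beta chain tails, fell to 1300 ± 24.5 CPM with the inhibitor, against 2275 ± 112 CPM with DMSO (log2 fold change -0.81, SE 0.048). Kindlin-2 (Fermt2), the form of adherent tissue cells, fell to 26.2 ± 0.244 CPM, against 59.5 ± 3.71 CPM with DMSO (log2 fold change -1.18, SE 0.062). Kindlin-3 (Fermt3), the form of blood cells, did not pass, at 225, 222 and 211 CPM with the inhibitor and 192, 218 and 202 CPM with DMSO. It was named after its values were seen, and was called higher with library totals. Rap1b, a small GTPase that switches integrins on and the most abundant of the list per kilobase, rose to 648 ± 6.15 CPM, against 531 ± 22.7 CPM with DMSO (log2 fold change 0.29). Talin-1 (Tln1), also named after its values were seen, had a log2 fold change of -0.17 (adjusted p = 0.0081) and did not pass with library totals, nor did Rap1a or Cyth1.

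The signalling list, of kinases and adaptors that act after ligand binding, had 4 of 19 genes higher, 14 lower and 1 not passing (median -0.41). The shares over all tested genes were 24.9% higher and 26.5% lower. Fgr, a Src family kinase of myeloid cells, fell to 30.3, 29.7 and 29.2 CPM with the inhibitor, against 60.0, 63.3 and 60.3 CPM with DMSO (log2 fold change -1.04, SE 0.052). Parva, an actin-linking partner of integrin-linked kinase, had a log2 fold change of -1.31 (SE 0.066). Fcer1g, an ITAM adaptor and the most abundant of the list per kilobase, averaged 426 ± 10.1 CPM with the inhibitor and 564 ± 20.9 CPM with DMSO. The 4 that were higher were Parvb, Plcg2, Ptk2b and Vav3, with log2 fold changes of 0.33 to 0.46. Parvg and Lyn were not called with library totals.

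Of 14 selectins and other adhesion molecules 11 were tested, 4 were higher, 5 lower and 2 did not pass. Their median log2 fold change was -0.09 and their mean -0.61. Among all tested genes 24.9% were higher and 26.5% lower. Podxl and Cd34, sialomucins that can carry selectin ligands, fell by 2.46 (SE 0.095) and 1.91 (SE 0.080) on the log2 scale. Podxl had 6.045, 5.67 and 5.02 CPM with the inhibitor and 33.1, 29.7 and 29.4 CPM with DMSO. Cd44, the hyaluronan receptor and the most abundant of the list per kilobase, did not pass, at 696 ± 8.84 CPM with the inhibitor and 739.8 ± 20.98 CPM with DMSO (log2 fold change -0.09, adjusted p = 0.0948). The genes called higher were Alcam, Cd99l2, Pvr and Selplg, the P-selectin ligand. The other genes called lower were Cd47 and the endothelial selectins Sele and Selp. The summed level of endothelial markers was lower in the same libraries, and its part was not tested.

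Within 100 kb of a member lay 52 other tested genes, of which 11 were higher, 12 lower and 29 did not pass (median log2 fold change 0.07), beside 24.9% higher and 26.5% lower among all tested genes. The 12 include Gm49368, which shares exons with Itgam. Around Itgb7 6 of 11 were lower and 5 did not pass (median -0.41). Around Madcam1 3 of 8 were higher and 1 lower: the nearest tested gene on the higher side, Tpgs1 at 0.831 kb, did not pass (0.16, adjusted p = 0.227), and Shc2, 26.6 kb on the lower side, was higher (0.84, SE 0.16). Cdc34, 13.7 kb on the higher side and named after its values were seen, was higher as well (0.69, SE 0.048). Beside Itgal, Zfp768 at 7.66 kb was higher (log2 fold change 0.32) and Sephs2 at 22.2 kb lower (-0.67). The single tested neighbour of Itga4 was Cerkl, with a log2 fold change of 0.43 (adjusted p = 0.312).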

How the data were processed

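RNA was measured in 6 libraries, 3 per group, grouped by their titles. The authors deposited raw read counts per Ensembl gene, whole numbers without normalization. The submitters' processing notes name build mm10 and the tools HISAT2, StringTie 1.3.0 and edgeR, without their roles. How reads were counted, by strand or where genes share exons, is not given in the sources used here. Ensembl identifiers were looked up in GENCODE M21 (mm10) for symbols and positions; 401 of them (0.151% of counts) had none.

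Groups were compared with edgeR 4.0.16 in R 4.3.3 (TMM scaling, filterByExpr with a minimum count of 10, quasi-likelihood test, no covariate), as inhibitor over DMSO. Each SE was obtained by dividing the absolute log2 fold change by the square root of F. Replicates of a group were not copies, with a chi-square per degree of freedom of 8.77 to 13.5. The members and gene lists were chosen with earlier results of these data known. From each list the 2 genes with the smallest p and the most abundant per kilobase were named, and from each marker list the most abundant. Beside members with a log2 fold change of at least 1 in size the nearest tested gene on each side was named. Other genes were named after their values were seen, or to complete a count. A count of 0 allows 3 counts, which covers counting error only. The procedure was tested on simulated data. Alternatives were other scalings and filters, DESeq2 1.42.0, a replicate block, a stricter threshold, GC and length correction, and leaving out libraries. Figures were drawn with matplotlib 3.10.9.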

Additional observations from a re-analysis of the deposited data

How the results depend on the processing

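Across 14 alternatives (13 for Madcam1, which lies under a mean of 5 CPM), Itgax, Itgal, Itga4, Itgb1, Icam1, Vcam1 and Madcam1 kept their direction and their call, with log2 fold changes of -3.80 to -4.37 for Madcam1 and -1.32 to -1.47 for Itgal. Leaving out 1 library gave 7 to 8 members lower, 2851 to 3269 genes higher and 3230 to 3611 lower. Library totals gave 7 members lower, at log2 fold changes of -0.29 for Itgam, -0.16 for Itgb7 and 0.0647 for Itgb2, whose range without 1 library was -0.10 to 0.0084. At an adjusted p under 0.01, 7 members were lower, beside 2741 genes lower and 2257 higher among the 13815 tested. With this threshold 0 other ligands, 3 activation genes and 2 selectin-list genes were higher. Icam2, the 1 other ligand called higher in edgeR (unadjusted p = 0.00527, adjusted p = 0.0136), accounts for that 0. The count of other ligands called higher was also 0 in DESeq2, and with a mean of at least 5 CPM, where Icam2 was not tested. The selectin-list count of lower genes was 3 with that mean. Without 1 library 2 to 4 of the selectin list were higher. The replicate block gave 9 members lower, 3215 genes higher and 3510 lower and changed no member's call. Deviations from the group mean correlated at -0.0337, -0.00297 and 0.0243 between same-numbered libraries of the 2 groups. Between differently numbered libraries the correlations were -0.0378 to 0.0409. What a replicate number marks cannot be told from these values. For the ratios the block cannot change a difference, because the mean of the differences within replicate numbers equals the difference of the group means. With the block the exact test gave p = 0.25 for each of the 5 ratios. GC and length correction gave 9 members lower, with 3584 genes higher and 3688 lower. Without 1 library the difference for Itgam over Itgb2 was -0.49 to -0.20. The cause of these changes was not tested. Madcam1 rests on 9 to 18 counts per library with the inhibitor, which limits the precision of its fold change (SE 0.22).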

Other observations

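Markers of the remaining cell types gave the following values, beside 26.5% of all tested genes called lower and 24.9% called higher. Of 9 neutrophil markers 2 were tested and both were lower, with summed levels of 25.5 to 28.6 CPM with the inhibitor and 102 to 105 CPM with DMSO, almost all from Csf3r, while S100a9, Ly6g, Retnlg, Elane and Ngp were at 0 in every library. Of 6 mast cell and basophil markers Kit was tested and was lower, with sums of 0.319 to 0.77 CPM with the inhibitor and 1.68 to 1.96 CPM with DMSO, and Fcer1a was at 0. Of 10 macrophage markers 8 were lower and Cd68 and Csf1r did not pass (median log2 fold change -0.95).

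Kat8 lies on the same chromosome as the genes for alpha L, alpha M and alpha X, 137 kb from the start of Itgam and 577 kb from the end of Itgal.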
